A study of Mus musculus with 3 samples.

Results

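The epithelial-mesenchymal transition (EMT) factor genes Zeb1, Zeb2, Snai1, Snai2 and Twist1 were chosen by name, as 5 of 20949 coding genes. A peak was counted for one of them when the lists named it as the closest gene, or when the peak's midpoint lay within 50 kb of its transcription start site (TSS). This gave 69 of 98086 Smad3 peaks and 34 of 63154 JMJD3 peaks. The assay was ChIP-seq, in which DNA bound by a protein is precipitated with an antibody and sequenced. The cells were mouse neural stem cells, taken from E12.5 wild type cortex, cultured with EGF and FGF, and given TGFb at 5 ng/ml. Smad3 and JMJD3 were precipitated after 30 minutes of TGFb, with 1 library per antibody, and an input library with no antibody was not analysed here. No library of cells without TGFb was analysed here, so no value below shows an effect of TGFb, and no value has a replicate error. The lists give positions without height or read number, so the depth is unknown and the width of a region (peaks of 1 list at most 10 bp apart, joined) stands in for strength. A site occupied in few cells and a site occupied weakly in all cells cannot be told apart.

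EMT is the change by which epithelial cells lose their junctions and become motile. Snai1 and Snai2 encode zinc finger repressors of the Snail family, Zeb1 and Zeb2 encode larger zinc finger repressors with a homeodomain, and Twist1 encodes a basic helix-loop-helix factor. Snail and Zeb proteins bind E-box elements, such as those in the E-cadherin gene Cdh1, and recruit corepressors there. TGF-beta is a classic inducer of EMT, and Smad3 carries its receptor signal to chromatin. JMJD3, the product of Kdm6b, removes methyl groups from lysine 27 of histone H3, a mark laid down by Polycomb repressive complex 2. In the developing nervous system, Snai2 and Twist1 are best known from neural crest and mesenchyme, and Zeb2 from neural crest and the cortex.

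Promoter sequence is shown for Snai1, a gene with both factors at its start, for the gene with neither factor within 50 kb (Twist1), and for the outermost Zeb2 start. It covers the 250 bases upstream of the start, from RefSeq on GRCm38.p6, a later build than that of the peaks, matched by symbol for 3 of the 5 genes. Capitals mark every match to the Smad box CAGAC, on either strand, and to the E-box CANNTG. The windows are chr2:167537945-167538194 on the plus strand for Snai1, chr12:33957421-33957670 on the plus strand for Twist1, and chr2:45117443-45117692 on the minus strand for Zeb2.
Snai1: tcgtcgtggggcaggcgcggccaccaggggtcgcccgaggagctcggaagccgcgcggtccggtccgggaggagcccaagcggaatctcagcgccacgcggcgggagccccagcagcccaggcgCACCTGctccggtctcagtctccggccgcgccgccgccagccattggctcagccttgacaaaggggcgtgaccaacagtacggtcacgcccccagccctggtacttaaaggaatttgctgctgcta
Twist1: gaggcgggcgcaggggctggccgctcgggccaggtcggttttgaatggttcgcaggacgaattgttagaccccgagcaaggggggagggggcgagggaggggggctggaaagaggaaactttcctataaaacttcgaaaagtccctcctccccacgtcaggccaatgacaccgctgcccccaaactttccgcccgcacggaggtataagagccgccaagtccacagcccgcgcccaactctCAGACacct
Zeb2: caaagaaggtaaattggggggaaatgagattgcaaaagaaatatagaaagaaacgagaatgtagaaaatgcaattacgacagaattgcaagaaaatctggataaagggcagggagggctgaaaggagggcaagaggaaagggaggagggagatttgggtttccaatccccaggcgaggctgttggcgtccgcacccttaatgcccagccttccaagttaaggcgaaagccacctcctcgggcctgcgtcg

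The Snai1 window held 1 E-box, CACCTG, whose first base lies 126 bases upstream of the start. This is the form of E-box that Snail and Zeb proteins bind. CACCTG or CAGGTG was found in 17.2% of all 32851 RefSeq windows of this length, and CANNTG, which includes it, in 66.2%. The Twist1 window held 1 Smad box, 9 bases upstream of the start, and this box, on either strand, was found in 42.2% of all windows. The palindromic Smad element GTCTAGAC (0.2% of windows), the AP-1 element TGANTCA (6.7%) and GGCGCC (9.6%) were in none of the 3 windows shown, each searched on both strands. The innermost of the 4 Zeb2 starts, not shown, has 2 TGANTCA matches, 189 and 132 bases upstream. These matches describe letters and not bound sites. The Snai1 window was rich in G and C (70.0%) with 27 CpG, and the Twist1 window had 62.4% and 18 CpG, where the medians over all windows were 52.4% and 6. The outermost Zeb2 window had 49.6% and 9 CpG. Snai1, with promoter peaks, and Twist1, without, were thus both above the median CpG number. Whether peaks go with CpG number over all genes was not tested.

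Promoter peaks, those within 1 kb of the start, were found for Smad3 at 3 of the 5 genes (Zeb1, Snai1 and Snai2), where 55.0% of all 20949 coding genes had one. For JMJD3 they were found at 2 (Snai1 and Snai2), where 43.3% of coding genes had one. Both factors were listed at Snai1 and Snai2, 2 of 5, beside 41.9% of all coding genes. Smad3 without JMJD3 was listed at Zeb1, 1 of 5, beside 13.1%. With 5 genes, these counts are near the shares over all genes and are no result about the group. The 5 genes differed from one another more than the counts show, and each is described in turn.

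The Snail family genes had Smad3 promoter regions of ordinary width and a narrower JMJD3 region at Snai2. The Snai1 region (chromosome 2, plus strand, TSS at 167363726 on mm9) was 730 bp for Smad3, from 167363291 to 167364020, and 750 bp for JMJD3, from 167363241 to 167363990. The Snai2 region (chromosome 16, plus strand, TSS at 14705951) was 730 bp for Smad3, from 14705411 to 14706140, and 560 bp for JMJD3, from 14705291 to 14705850. The median promoter region was 760 bp over 11522 coding genes with Smad3 and 860 bp over 9075 with JMJD3. Both genes were therefore close to the middle for Smad3, at percentile 47.0. For JMJD3 they lay lower, with Snai1 at percentile 36.5 and Snai2 at 13.7. The Zeb1 Smad3 region (chromosome 18, plus strand, TSS at 5591888) was wider, 1311 bp from 5590871 to 5592181, at percentile 89.1. Without joining, the widest single Smad3 peak was 541 bp at Zeb1 and 270 bp at Snai2, so both widths rest on 3 neighbouring peaks. The plot of promoter region widths sets the 3 genes in these distributions.

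**Figure D1:**
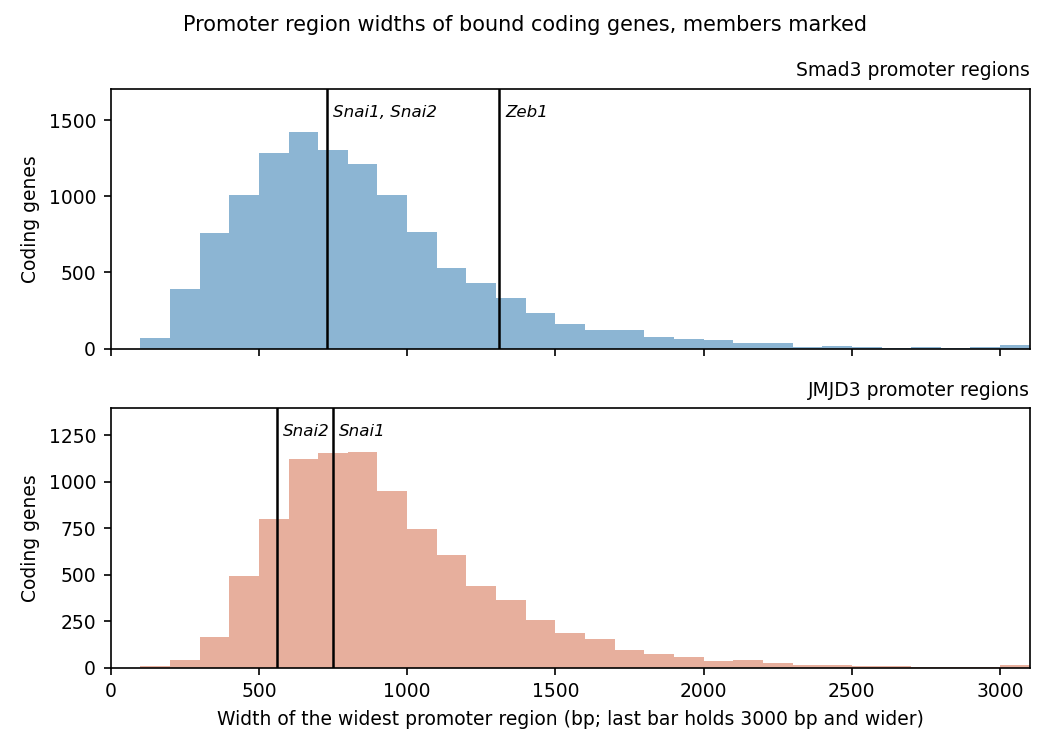
Number of coding genes (y axis) by width in bp of their widest promoter region (x axis, bars of 100 bp), for Smad3 above and JMJD3 below, with vertical lines at the EMT factor genes. Snai1 and Snai2 sit at 730 bp for Smad3 near the median of 760 bp, Zeb1 at 1311 bp in the upper tail, and both JMJD3 lines, at 560 and 750 bp, lie below the median of 860 bp.

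Snai1 had the most regions of the 5 genes around its TSS. Within 50 kb there were 14 Smad3 and 8 JMJD3 regions, where the medians over 15350 coding genes named as closest to a peak were 5 and 3. At least 8 JMJD3 regions were found at 11.2% of those genes. Of the 19 Smad3 peaks in the window 12 named Snai1 as the closest gene, and of the 17 JMJD3 peaks 10 did. The others named Rnf114, Spata2 or Ube2v1, so the counts take in regions closer to neighbouring genes. Of the 17 JMJD3 peaks, 13 overlapped a Smad3 peak (76.5%), near the 81.4% of all JMJD3 peaks. The Snai1 promoter pair shared 700 bp, and the midpoints lay 40 bp apart.

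Downstream of the short Snai1 gene (4.6 kb) lay 3 further pairs, all naming Snai1 as the closest gene. The first was at 14.8 kb for Smad3 (461 bp) and 14.9 kb for JMJD3 (690 bp). The second lay at 27.8 kb for both (530 and 480 bp). The third was at 32.1 kb for Smad3 (900 bp) and 32.0 kb for JMJD3 (1310 bp), and this JMJD3 region was wider than the one at the promoter. Between the gene and the first pair, Smad3 was listed alone in a region of 881 bp made of 4 peaks and centred 5.6 kb from the TSS, and in a region of 270 bp at 8.7 kb. JMJD3 was listed alone at 36.8 kb (481 bp). Other Smad3 regions without JMJD3 lay at -5.8 kb (360 bp) and 24.1 kb (410 bp). Upstream, the pairs at -34.7 to -46.9 kb named Spata2 and Rnf114, whose TSS lie 45.4 and 45.6 kb from that of Snai1. Smad3 was also listed without JMJD3 there, at -34.1 kb (351 bp) and -49.4 kb (370 bp). The most distant Smad3 peak of the window, at 48.1 kb, named Ube2v1. Which gene these regions act on was not tested.

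Snai2 was the opposite in extent, with nothing listed beyond its promoter. The 3 Smad3 peaks and 2 JMJD3 peaks formed 1 region each, and these shared 440 bp. The JMJD3 region ended before the TSS, whereas the Smad3 region reached past it. Exactly 1 region of each factor within 50 kb, both at the promoter, was found at 2.23% of the 15350 genes. Upstream of the promoter, the next peak of each factor lay at -344.3 kb and named Abcc1. Downstream, the next Smad3 peak was at 235.3 kb and named Efcab1, and the next JMJD3 peak was at 633.4 kb and named Ube2v2.

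**Figure D2:**
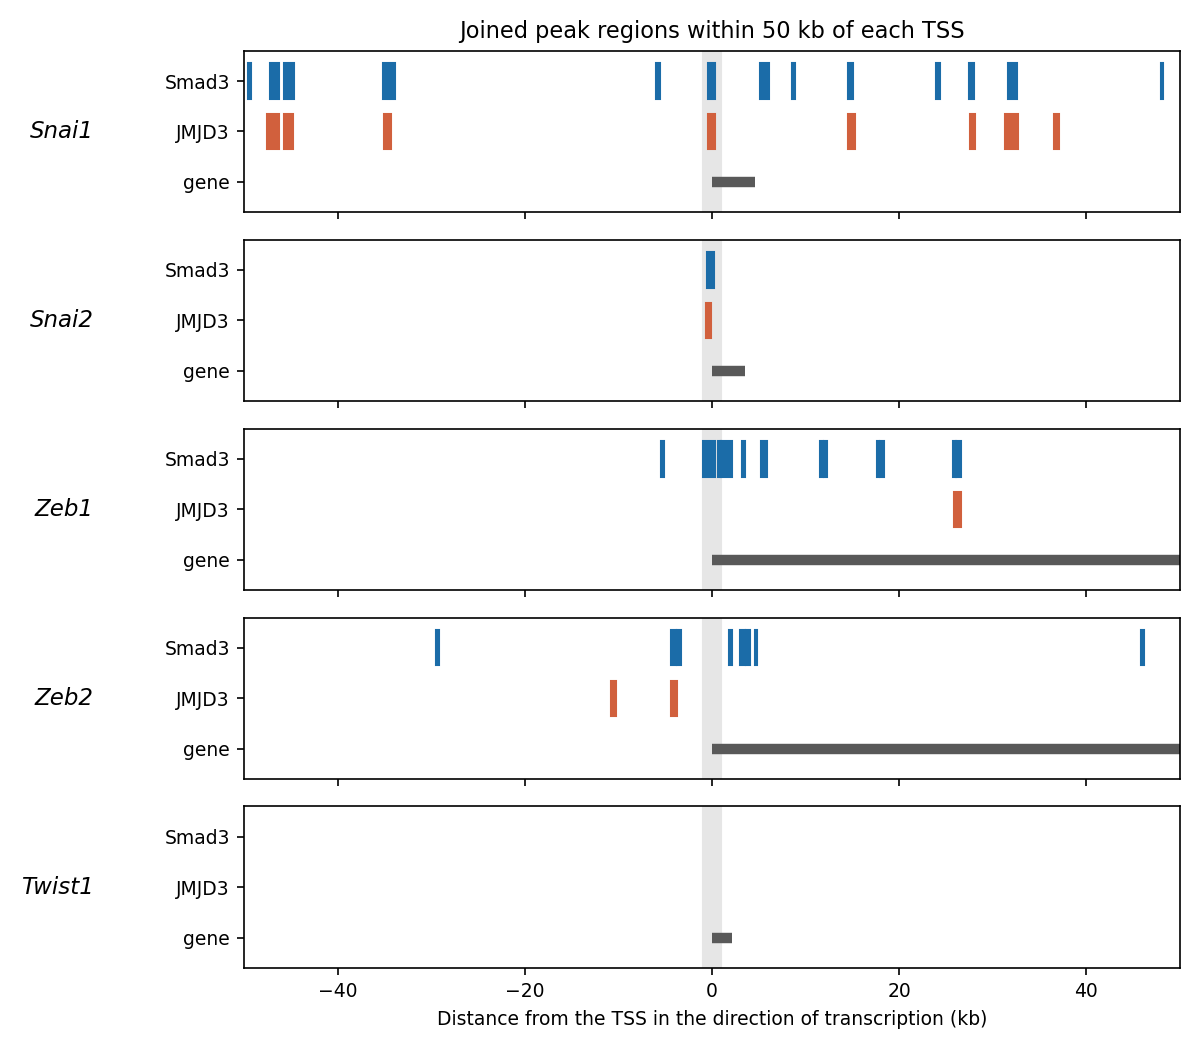
Joined Smad3 (blue) and JMJD3 (orange) regions within 50 kb of each TSS, on an x axis of distance in kb in the direction of transcription; the grey band is 1 kb on each side of the TSS, the dark bar the transcribed gene, and regions under 0.25 kb are drawn at that width. Snai1 has 14 and 8 regions on both sides, Snai2 has 1 and 1, Zeb1 has 12 Smad3 regions and 1 JMJD3 region, Zeb2 has 8 and 2 with none in the band, and Twist1 has none.

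Zeb1 carried a dense group of Smad3 regions with hardly any JMJD3. Within 50 kb of its TSS, Smad3 had 18 peaks in 12 regions, and JMJD3 had 1 peak. At least 12 Smad3 regions were found at 14.1% of the 15350 genes. Of those 2172 genes, 0.138% had at most 1 JMJD3 region, which is 3 genes, Figla, Nop56 and Zeb1. The promoter showed the same imbalance. Of the 1269 coding genes whose Smad3 promoter region was at least as wide as that of Zeb1, 94.6% had a JMJD3 promoter peak, and Zeb1 did not. These comparisons were made after the Zeb1 values were seen and describe 1 gene in 1 library of each antibody.

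The Smad3 regions of Zeb1 ran from the promoter into the gene. After the promoter region of 1311 bp came a region of 340 bp at 0.8 kb and one of 1170 bp, made of 3 peaks and centred at 1.6 kb. Others lay at 3.3, 5.6, 11.7, 12.1, 17.7 and 18.2 kb, with widths from 231 to 560 bp. The last 2, of 221 and 600 bp at 25.9 and 26.4 kb, were the 2 that touched the JMJD3 peak, which was 660 bp wide at 26.2 kb (5617791 to 5618450). Of the 18 Smad3 peaks, 14 named Gm10125 as the closest gene, whose TSS lies 547 bp downstream of that of Zeb1 on the opposite strand. Upstream, Smad3 was listed at -5.3 kb (380 bp) and, past the window, at -109.3 kb (231 bp). No JMJD3 peak was listed from -145.1 kb to 26.2 kb, a stretch of 171.3 kb around the Zeb1 TSS.

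The plot of region numbers shows where the 5 genes fall among all genes named as closest to a peak. Zeb2, with 8 Smad3 and 2 JMJD3 regions, lay less far out than Zeb1. Its percentiles were 73.8 for Smad3 and 38.4 for JMJD3, where those of Zeb1 were 88.5 and 21.8. Snai1 lay among genes with many of both.

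**Figure D3:**
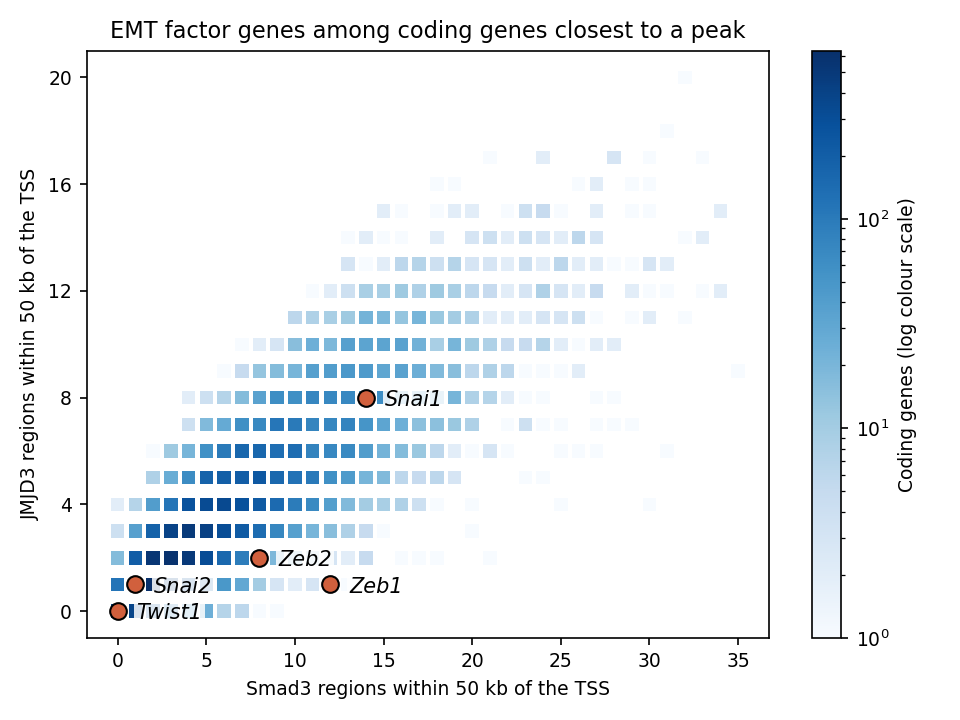
Number of JMJD3 regions (y axis) against Smad3 regions (x axis) within 50 kb of the TSS for 15350 coding genes named as closest to a peak, as squares coloured by the number of genes on a log scale, with the EMT factor genes as orange points. Zeb1, at 12 and 1, lies on the lower edge of the cloud, Snai1, at 14 and 8, inside it, and Twist1 and Snai2, at 0 and 0 and at 1 and 1, in its lower corner.

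At Zeb2 (chromosome 2, minus strand, TSS at 44968799) neither factor was listed within 1 kb of the TSS given in the files. The nearest pair lay at -4.1 kb, that is upstream, where a JMJD3 region of 700 bp (44972521 to 44973220) covered the whole of a Smad3 region of 551 bp (44972621 to 44973171). The same JMJD3 region shared 60 bp with a second Smad3 region, of 450 bp at -3.6 kb. RefSeq on GRCm38.p6 lists 4 Zeb2 starts, and the outermost, whose sequence is shown above, lies 4163, 4189 and 7165 bp upstream of the other 3. Which of the 4 starts the TSS of the files stands for was not tested. Whether the outermost start and the pair at -4.1 kb coincide was therefore not tested either. The promoter calls at Zeb2 rest on the TSS of the files only.

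Within the first 5 kb of the Zeb2 gene Smad3 was listed alone, in regions of 360 bp at 2.0 kb, 470 bp at 3.2 kb, 411 bp at 3.9 kb and 220 bp at 4.7 kb. These named Gm13476, a transcript that starts 2142 bp inside Zeb2 on the opposite strand. A further Smad3 region of 341 bp lay at 46.0 kb. JMJD3 was listed alone at -10.5 kb (550 bp), and Smad3 alone at -29.3 kb (320 bp).

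Most regions that named Zeb2 lay far upstream, in a stretch with no other TSS of the lists. The next TSS in that direction, of the activin receptor gene Acvr2a, was 3700.8 kb away. More than 50 kb upstream, Zeb2 was the closest gene of 15 Smad3 regions, from 230 to 661 bp wide, and 10 JMJD3 regions, from 400 to 1400 bp wide. At least as many were found at 0.365% of the 15350 genes for Smad3 and 0.489% for JMJD3. A gene with a more distant neighbour is the closest gene over a longer stretch, and these numbers were not adjusted for that. Over the 1.76 Mb from the TSS to the farthest of these regions there were 10.24 Smad3 and 6.83 JMJD3 regions per Mb. The whole lists, promoters and genes included, had 27.41 and 17.49 per Mb. Other stretches without a TSS were not compared.

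The remote Zeb2 regions of both factors met at 8 places. By their JMJD3 midpoints these lay at -71.8, -112.3, -276.9, -298.8, -468.2, -623.3, -676.6 and -1553.6 kb. The midpoints of the 2 regions coincided at -298.8 kb and differed by at most 200 bp at the others. The widest JMJD3 region was the one at -1553.6 kb, with 1400 bp against 611 bp for Smad3. JMJD3 was listed without Smad3 at -307.8 and -1758.0 kb, and Smad3 without JMJD3 in 7 remote regions. Of the 17 remote Smad3 peaks, 9 overlapped JMJD3 (52.9%, exact Clopper-Pearson 95% interval 27.8 to 77.0), and of the 12 remote JMJD3 peaks, 10 overlapped Smad3 (83.3%, 51.6 to 97.9). Over all peaks more than 50 kb from any TSS the shares were 60.8% and 75.2%, which lie inside these intervals. The intervals cover counting error only, and neighbouring peaks are not independent.

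**Figure D4:**
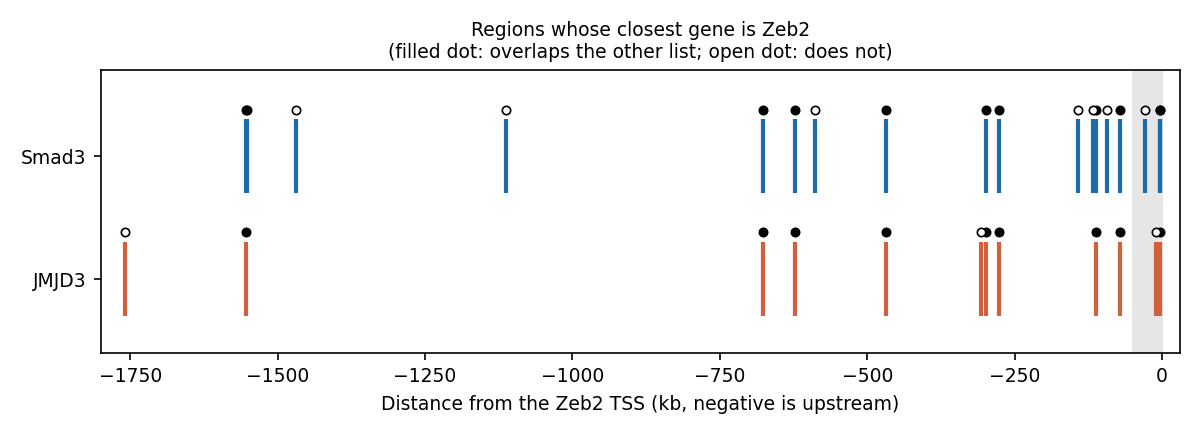
Midpoints of the 18 Smad3 (blue) and 12 JMJD3 (orange) regions that name Zeb2 as the closest gene, by distance in kb from its TSS (x axis, negative is upstream); a filled dot marks a region that overlaps the other list, an open dot one that does not, and the grey band is the first 50 kb. Filled dots stand in line in both rows out to -1553.6 kb, and the last JMJD3 region, at -1758.0 kb, has no Smad3 partner.

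Twist1 (chromosome 12, plus strand, TSS at 34642535) had no peak of either factor within 50 kb, which was the case for 2.31% of the 15350 genes. Its 2 Smad3 peaks, of 430 and 480 bp, lay 198.3 and 215.6 kb downstream, outside any gene as the lists give it. The Hdac9 transcript used here spans 157.4 kb, from a TSS 571.2 kb away on the opposite strand. Whether longer Hdac9 transcripts reach these 2 Smad3 peaks was not tested. No JMJD3 peak named Twist1. The nearest one by position lay 347.9 kb downstream and named Hdac9. A nearest peak at least as far off was found at 0.691% of the genes for Smad3 and 0.502% for JMJD3. The Twist1 TSS thus sat in a stretch of 602.1 kb without Smad3 peaks and 960.5 kb without JMJD3 peaks. Genes that no peak names are not among the 15350.

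Taking the 5 loci in one count, fewer Smad3 peaks met JMJD3 than in the whole list. Of the 69 Smad3 peaks, 24 overlapped a JMJD3 peak by at least 1 bp (34.8%, exact 95% interval 23.7 to 47.2), against 60.2% of all 98086. At Zeb1 2 of 19 peaks overlapped, and without Zeb1 the count was 22 of 50 (44.0%, 30.0 to 58.7). At Zeb2 the count was 11 of 26 (23.4 to 63.1), at Snai1 9 of 19 (24.4 to 71.1), at Snai2 2 of 3 and at Twist1 0 of 2. The intervals at Zeb2 and Snai1 include 60.2%. All these intervals cover counting error only. The 69 peaks form 53 regions and neighbouring peaks are not independent, so the intervals are too narrow. Of the 34 JMJD3 peaks, 27 overlapped Smad3 (79.4%, 62.1 to 91.3), near the 81.4% of the whole list. Regions of both factors formed 20 overlapping pairs with 18 different JMJD3 regions, since 1 at Zeb1 and 1 at Zeb2 met 2 Smad3 regions each. The JMJD3 region was the wider in 16 pairs (80.0%), where it was the wider in 67.1% of 39860 such pairs over the whole lists. The median distance between midpoints was 102 bp at the 5 loci and 85 bp over all pairs.

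The coding genes most like each EMT factor gene were taken by the distance over 4 values, the log2 of 1 plus the number of regions within 50 kb and the log2 of 1 plus the promoter width, each for Smad3 and JMJD3, in 1 library each. For Zeb1 they were Nop56 (12 and 1 regions, with a Smad3 promoter region of 1340 bp) and Nptxr (10 and 2, with 1090 bp), both without JMJD3 at the promoter. For Snai1 they included Spag5 (14 and 8 regions), and for Snai2 they were Tex10 and Fancb. For Zeb2, 9 genes tied at the same 4 values, the first by name being Flt3 and Gm11437. For Twist1, 352 genes tied with no region of either factor.

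Promoter peaks of both factors were then counted at other genes of the EMT program. All 12 corepressor and regulator genes of Snail and Zeb proteins carried both factors (100%), beside 55.0% of coding genes for Smad3 and 43.3% for JMJD3. Their median widths were 1220.5 bp for Smad3 and 985.0 bp for JMJD3. The 4 genes described next were taken for their wide regions of both factors. Sin3a, a corepressor scaffold, had 1960 bp for Smad3 and 2910 bp for JMJD3. Gsk3b, the kinase that marks Snai1 protein for degradation, had 1631 and 1731 bp. Fbxl14, a ubiquitin ligase subunit for Snail and Twist proteins, had 1630 and 1510 bp, and Ctbp2, a corepressor of Zeb proteins, 1311 and 1190 bp. Narrow regions were found in the same list, for both factors at Kdm1a and for JMJD3 only at Hdac2. These genes are named here after their values were seen. Kdm1a, encoding a histone demethylase, had 550 and 531 bp, and the deacetylase gene Hdac2 had 1490 bp for Smad3 and 480 bp for JMJD3. Most genes of this list are broadly expressed.

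Among mesenchymal genes, which EMT turns on, 11 of 18 had Smad3 (61.1%) and 10 had JMJD3 (55.6%), not far from all coding genes. The genes with both factors are named for their width. The cell adhesion genes Itgb1 (1530 and 1510 bp for Smad3 and JMJD3) and Cdh2, encoding N-cadherin (1410 and 1780 bp), had wide regions of both. So did Vim, encoding vimentin (1801 and 1180 bp). At the narrow end, named after their values were seen, were the fibronectin gene Fn1 (420 bp for each factor) and S100a4 (571 and 560 bp), and Acta2, Tagln and Col3a1 had no promoter peak. The collagen gene Col1a1 had Smad3 alone (501 bp). Cdh2 and Vim are also genes of neural progenitors.

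Epithelial genes, which EMT turns off, had promoter peaks at 3 of 20 for each factor (15.0%), and 13 of the 20 were named as closest to any peak. Over all coding genes the shares were 55.0% for Smad3 and 43.3% for JMJD3. The epithelial genes with both were Pard6b, a polarity gene (780 and 830 bp), and Tjp1, encoding a tight junction scaffold (571 and 1051 bp). Cdh3, encoding P-cadherin, had Smad3 alone (390 bp) and Llgl2, another polarity gene, JMJD3 alone (570 bp). Cdh1, named here after its values were seen, had no promoter peak. The nearest peaks that name it lay 16335 bp (Smad3) and 14806 bp (JMJD3) downstream of its TSS.

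Other transcription factor genes of EMT had Smad3 at 6 of 12 and JMJD3 at 7 (58.3%). Tcf3, encoding an E protein that partners Twist factors, had 1460 and 1610 bp, Sox9 1051 and 1101 bp, the E protein gene Tcf4 840 and 1040 bp, and Foxc1 911 and 771 bp. Of the closest relatives of the 5 genes, Twist2 and Snai3 are also named after their values were seen. Twist2 had no promoter peak, and the nearest JMJD3 peak that names it lay at -14076 bp. Snai3 was named by no peak. None of the 6 microRNA genes of the miR-200 and miR-205 families, whose products target Zeb1 and Zeb2 messenger RNA, had a promoter peak of either factor. Only 2 of the 6 were named as closest to any peak, and a gene that no peak names cannot have a promoter peak here. Mir205 was named by 20 Smad3 peaks, the nearest at 3248 bp, and by 8 JMJD3 peaks, the nearest at -61256 bp. Mir200b was named by 1 JMJD3 peak, at -8286 bp.

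**Figure D5:**
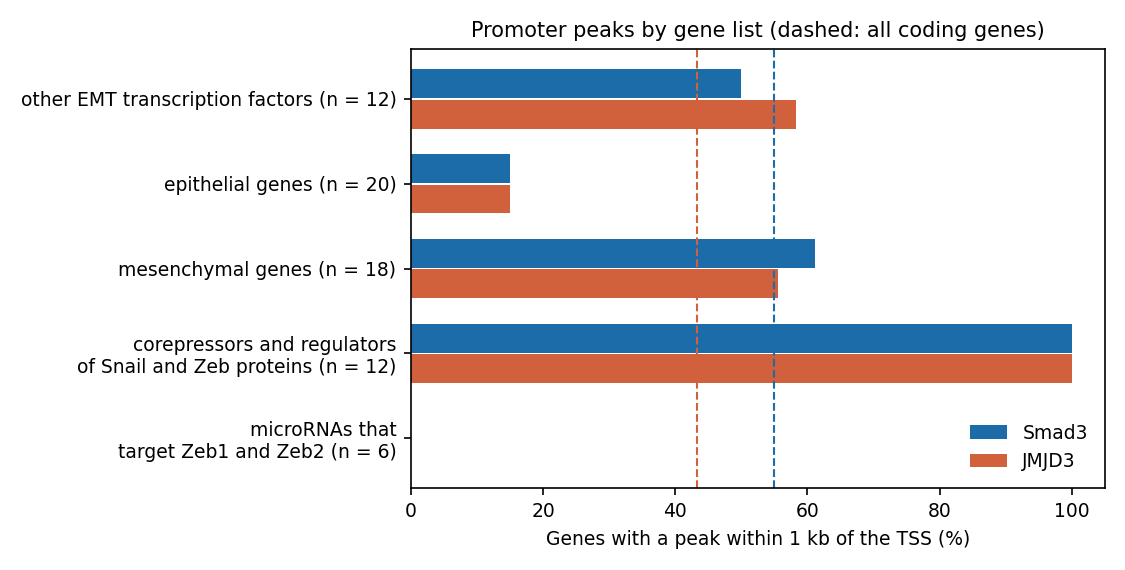
Percent of genes in each EMT list with a peak within 1 kb of the TSS (x axis) for Smad3 (blue) and JMJD3 (orange), with the number of genes in brackets; dashed lines mark all coding genes at 55.0% and 43.3%. Corepressors and regulators stand at 100% for both factors and epithelial genes at 15.0%. The microRNA genes, which are not coding genes and of which 2 of 6 were named by any peak, stand at 0.

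The lists measure binding and not RNA, so the labelled cell type could be checked only by the promoters of marker genes. Of 10 neural stem and progenitor markers, 9 carried Smad3 and 8 carried JMJD3, and of 5 neuronal markers, 4 and 3 did, where 55.0% and 43.3% of all coding genes do. With lists this short, several of these counts are near those shares. Neither factor was listed at any of 3 oligodendrocyte, 3 microglial or 3 neural crest markers. Of 3 endothelial markers 1 carried both, and of 4 fibroblast and meningeal markers 1 carried Smad3. Vim, Col1a1 and Col1a2 are also in the mesenchymal list above. Promoter peaks were found at many coding genes, and how they relate to expression was not tested. Nor was the part of other cells in the regions above tested.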

How the data were processed

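ChIP-seq peak lists of 1 Smad3 and 1 JMJD3 library were used. Per the submitters' processing notes, CASAVA, Bowtie 0.12.7 and MACS 1.4 were named, with build mm9. The sources used here give neither thresholds nor how the input library was used. Each deposited row gives a peak's position and its signed distance to the closest RefSeq TSS, which matched the distance recomputed from the positions within 3.5 bp. The planned peak score is absent, so width was used.

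Peaks at most 10 bp apart were joined. A promoter peak names the gene and has its midpoint within 1 kb of the TSS. Overlap means 1 bp or more. Coding genes came from RefSeq GRCm38.p6, matched on Entrez ID (16331 of 16428 named genes), for names only. Genes were named by a rule: the 5 genes and the genes closest to their peaks, up to 4 genes per list with both factors (by the lower width percentile), up to 2 with 1 factor, and the 2 genes most alike outside 100 kb. Some genes that the rule names are not reported here. The genes, lists and comparisons were chosen with earlier results of these data known, and comparisons set at a gene's own value were added after that value was seen. Without replicates no test was run. The joining, overlap and promoter steps were tested on simulated data. Python 3.11.15, pandas 2.3.3 and scipy 1.17.1 were used.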

Additional observations from a re-analysis of the deposited data

How the results depend on the processing

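Of 37 alternative values over 11 results, 27 stayed within 1.5 times a count, inside the interval of a share, or at the same width. Keeping the wider 50% of regions left 1 gene with a JMJD3 promoter peak (Snai1) in place of 2, and kept Zeb1, Snai1 and Snai2 for Smad3. A promoter window of 5 kb added Zeb2 for both factors. Counting only peaks that name 1 of the 5 genes gave 32 Smad3 regions in place of 53, since 14 Smad3 peaks near Zeb1, 6 near Zeb2 and 7 near Snai1 name a neighbour. Without joining there were 34 JMJD3 regions in place of 22. The share of JMJD3 peaks overlapping Smad3 fell from 79.4% to 50% with 50% reciprocal overlap and to 58.8% with midpoints within 200 bp, where the whole list gave 58.2% and 71.3%. For Smad3 the lower share at these loci was found under each of the 4 alternatives, from 24.6% against 37.4% to 42.9% against 59.9%. Without joining, the widest promoter peaks were 541 bp (Zeb1), 730 bp (Snai1) and 270 bp (Snai2) for Smad3, and 571 bp (Snai1) and 481 bp (Snai2) for JMJD3. Joining at 500 bp widened Zeb1 to 3190 bp. No paired analysis was possible because each antibody has 1 library. Depth behind the peaks is unknown, so no level can be given for a site without a peak.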

Other observations

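The imbalance at Zeb1 ran beyond the 50 kb on which the report is based. The transcribed Zeb1 gene spans 183.0 kb and held 28 Smad3 regions and 4 JMJD3 regions. Past the first 1 kb, 4 of 26 Smad3 regions and 3 of 4 JMJD3 regions overlapped the other factor with at least 1 of their peaks. The shares over the whole lists were taken on single peaks, a different unit. Among peaks more than 1 kb from any TSS they were 56.6% for Smad3 and 77.3% for JMJD3. The JMJD3 count is near its share. The transcribed Zeb2 gene, 129.6 kb long, held 7 Smad3 regions and 1 JMJD3 region, all past the first 1 kb, and 1 of the 7 overlapped JMJD3. The short Snai1, Snai2 and Twist1 genes held no region of either factor past their first 1 kb.

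Nop56 shared with Zeb1 both the 12 Smad3 regions to 1 JMJD3 region within 50 kb and a Smad3 promoter region of like width (1340 bp) with no JMJD3 promoter peak. Nop56 was taken above as the gene most like Zeb1 by these same values, so the match follows from that choice. Figla, with 13 Smad3 regions and 1 JMJD3 region, had no promoter peak of either factor.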
